A study of Mus musculus with 8 samples.

Results

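In livers of the DBA strain, 1638 autosomal cytosines that the reference genome does not place in a CG were methylated, while the same cytosines were close to unmethylated in B6. They were taken from 5736100 autosomal cytosines in the CHG and CHH contexts (H is any base but G) that had at least 10 reads in the B6 female and in the DBA female, and all those with a level more than 50 percentage points higher in DBA were kept (0.0286% of the cytosines tested). These members were chosen by the levels of the female parents, which are therefore given as a description. The other 6 mice were not used in the choice, nor was the identity of the base after the cytosine, beyond its not being G, nor the sorting of reads by SNPs. Reads with a SNP did enter the levels that chose the members, since all classes of reads were summed.

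Methylation was measured by reduced representation bisulfite sequencing (RRBS) of liver DNA from 8 mice, aged 16 weeks and fasted for 16 h. The inbred parents were C57BL/6J (B6) and DBA/2J (DBA). The F1 mice were BXD, with a B6 mother and a DBA father (C57BL/6JxDBA/2J), and DXB, from the reciprocal cross (DBA/2JxC57BL/6J). Each strain and cross had 1 female and 1 male, none was treated otherwise, and the difference between the parent strains therefore rests on 1 mouse per strain and sex.

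In mammals, cytosine methylation is placed mostly on CG dinucleotides, where both strands carry a cytosine and the mark can be copied when DNA is replicated. A methylated cytosine can deaminate to thymine, which turns a CG into TG on one strand and CA on the other, and the reverse change makes a CG. Bisulfite turns unmethylated cytosines into bases read as thymine, so the share of reads that keep the cytosine gives its level, and the context of a cytosine is named from the reference, which is the B6 sequence. A cytosine that DBA carries in a CG is then listed under CHG or CHH if B6 has another base after it. Liver is not among the tissues known for high methylation outside CG.

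The sequences below are those of the reference (NCBIM37, mm9) around members in genes and 1 intergenic member, read 5′ to 3′ on the strand of the member. They show the base after the member and the CGs around it, since most results below turn on these. Capitals mark the member with the base after it, at positions 31 and 32 of 61 bases (positions 15 and 16 of the 29 bases given for Mtmr10 and Ltk), and each CG of the reference. The sequence of DBA was not used here. In the first set the member stands before A.
Wdr60, chr12:117494474-117494534, minus strand: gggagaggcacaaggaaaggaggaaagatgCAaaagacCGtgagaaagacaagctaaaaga
Mtmr10, chr7:71482528-71482556, plus strand: aCGtctctcCGgaaCAcacataaaattgt
Gm10874, chr5:138805773-138805833, minus strand: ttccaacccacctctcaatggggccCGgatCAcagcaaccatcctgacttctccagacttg
Wrap53, chr11:69376905-69376965, plus strand: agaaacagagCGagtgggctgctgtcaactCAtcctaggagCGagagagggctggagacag
intergenic, chr1:154638984-154639044, minus strand: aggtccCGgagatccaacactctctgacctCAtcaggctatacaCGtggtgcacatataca

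In the second set the member stands before C or T, as it did less often. In Ucp2, the C after the member is itself a cytosine that the files can list, which gives a view of that base in DBA.
Ucp2, chr7:107645404-107645464, minus strand: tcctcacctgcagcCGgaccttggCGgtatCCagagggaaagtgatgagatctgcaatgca
Slit3, chr11:34965468-34965528, minus strand: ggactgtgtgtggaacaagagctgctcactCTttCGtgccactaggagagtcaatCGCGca
Wrn, chr8:34412345-34412405, plus strand: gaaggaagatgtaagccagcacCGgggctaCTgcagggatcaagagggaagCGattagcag
1700018B24Rik, chr3:48412736-48412796, minus strand: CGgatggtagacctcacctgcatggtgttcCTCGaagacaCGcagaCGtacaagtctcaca

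In the third set, the CGs within 50 bases of the member had intermediate levels in the DBA female, between 24.8% for Ltk and 71.6% for Krt40.
Krt40, chr11:99398848-99398908, minus strand: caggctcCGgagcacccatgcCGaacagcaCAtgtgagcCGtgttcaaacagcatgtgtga
Ppfibp2, chr7:114792781-114792841, minus strand: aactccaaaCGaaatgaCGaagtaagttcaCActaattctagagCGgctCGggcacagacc
Myo15b, chr11:115733487-115733547, plus strand: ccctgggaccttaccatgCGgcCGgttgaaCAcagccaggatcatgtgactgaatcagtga
Selp, chr1:166070170-166070230, minus strand: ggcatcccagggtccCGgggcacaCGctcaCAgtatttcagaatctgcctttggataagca
Ltk, chr2:119586021-119586049, plus strand: agcagcccatCGccCAatcccttggttcc

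Each of the 10748112 cytosines listed in the 8 libraries was a C or G of the reference, and the context given by the authors matched the reference at 100% of them. The base that faces the A of a CA is a T of the reference and is not listed, so a member was seen on 1 strand only. The libraries differed in the cytosines with 10 reads, fewest in the DBA male (2903539) and most in the B6 female (9386346), with mean coverages of 51.5 to 103 reads. The library labelled B6 male went against its label in part of the genome. Only 83.9% of its calls from reads sorted by a SNP carried the B6 tag, and in 643 of 5771 windows of 100 kb with at least 50 such calls, at least 90% carried the DBA tag. Comparisons of the male parents and calls at the following C are therefore given with all windows and without those that have at least 10% DBA tags. Its median over all members and its values at single sites and on the X chromosome are not split in this way.

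At the members, 980 of 1638 had no methylated read in the B6 female, and 56 were above 5% there. In the DBA female, 1152 members were above 80% and 744 above 90%. The differences between the female parents were not gathered at the limit of 50 points. A difference above 90 points was seen at 689 members, one of 80 to 90 points at 436, of 70 to 80 points at 227, of 60 to 70 points at 156 and of 50 to 60 points at 130. Just outside the limit, 154 cytosines differed by 40 to 50 points, 10 of them by exactly 50 points, and the member just inside it differed by 50.1 points, with 72.7% of 11 reads in DBA and 22.6% of 31 reads in B6. The opposite difference, B6 above DBA by more than 50 points, was seen at 7 cytosines. At CGs of the reference the directions were unequal the other way, with 4368 CGs higher in B6 and 445 higher in DBA among 859630 tested.

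Across the 8 libraries, the median levels followed the DBA share of the genome. The DBA female had a median level of 88.5% over the members with 10 reads (n = 1638), and the DBA male one of 88.9% (n = 378), with 350 of its 378 above 50%. It was 0% in the B6 female (n = 1638) and 0% in the B6 male (n = 891), where 109 members were above 50%. In the F1 mice, the median was 41.0% in the BXD female (n = 722), 40.1% in the BXD male (n = 1333), 41.0% in the DXB female (n = 710) and 41.6% in the DXB male (n = 716). All F1 medians thus lay between those of the parents and within 1.5 points of each other, on both sides of the cross. Over the 4 F1 mice the median was 40.9 ± 0.615% (mean ± SD, n = 4). The ratio of each member to its own mean in the female parents had a median of 0.939 ± 0.00705 (n = 4). Some members departed from this, and the ratio was under 0.5 at 58 of 722 members in the BXD female, 65 of 1333 in the BXD male, 57 of 710 in the DXB female and 68 of 716 in the DXB male, and over 1.5 at 15 to 25 members in each mouse. In the BXD male, 1.05% of the members with 10 reads were under 5%. The share was 4.57% in the BXD female, 3.94% in the DXB female and 3.77% in the DXB male. The Pcsk2 member was above 50% in the BXD male and under 10% in the other F1 mice, while at Disp2 the BXD male was lowest. How often the same members were low together was not counted. The BXD male library listed 9651366 cytosines, the other F1 libraries 5056771 to 5060143, and a link to this was not tested.

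**Figure D1:**
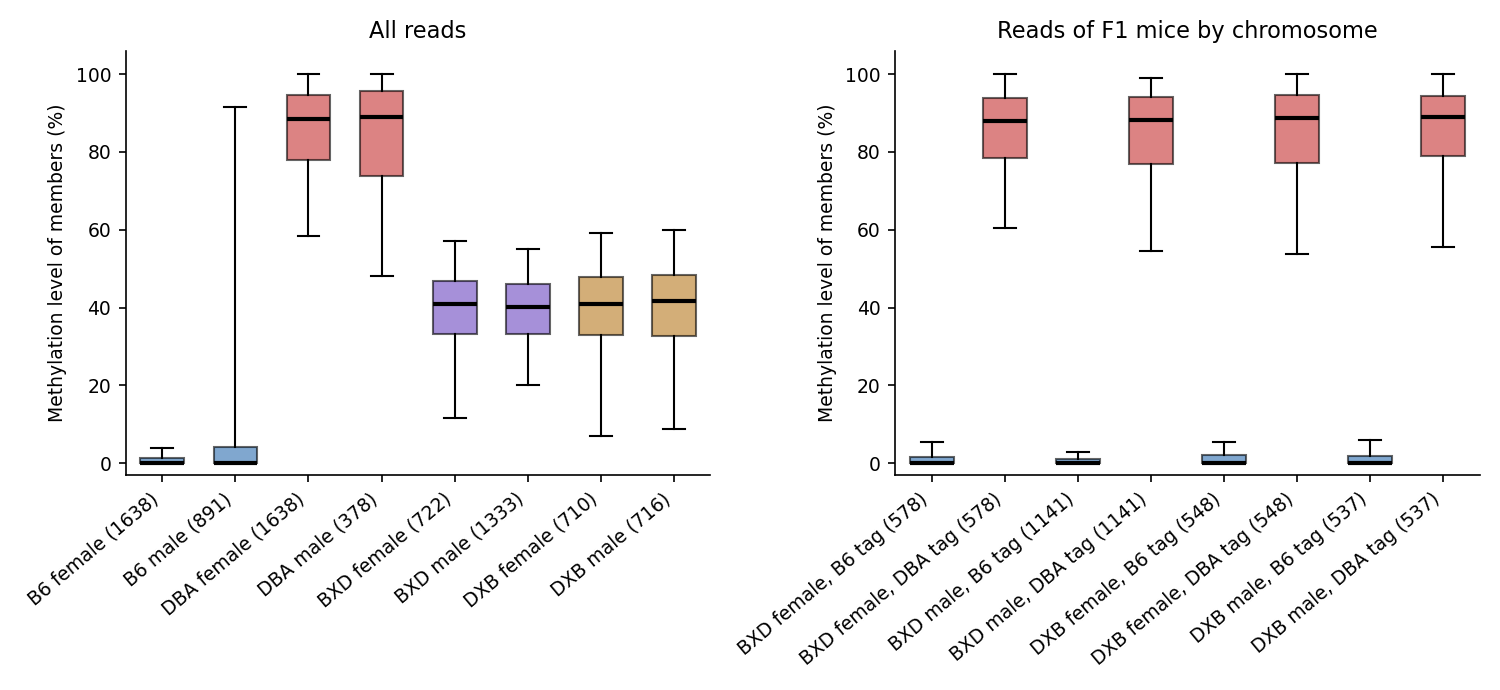
Methylation level of the members (%) in each mouse, from all reads (left, number of members with 10 reads in brackets) and from reads of the F1 mice sorted to the B6 or DBA chromosome (right, members with 10 reads of each tag). Boxes give quartiles and medians and whiskers the 5th and 95th percentiles: DBA lay near 88.5%, F1 mice near 41%, and the whisker of the B6 male reached 92.2%.

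The male parents repeated the difference in mice that were not used to find it. Of the 1638 members, 319 had 10 reads in both males. By the study's rule for parents (exact 95% binomial intervals that exclude the other mouse's level, and a difference above 50 points), 238 of these 319 were called higher in DBA (74.6%), against 0.0311% of the 1495507 autosomal cytosines outside CG tested in males. No member was called higher in B6, while 42 of all cytosines tested were. Of the 465 cytosines called higher in DBA in the males, 227 were not members. Of these, 97 had been tested in the female parents and were not above the limit of 50 points there. With 1 male per strain, this compares 2 libraries and carries counting error only. Between the DBA mice, the level of the male was within 10 points of that of the female at 252 of 378 members and within 20 points at 340. Pearson's r across these members was 0.711, and they share their libraries. The levels of the DBA female chose the members, so these values only describe how near the 2 mice were. Other cytosines were not compared in this way.

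Most members that were not called in the males lay in windows where the library labelled B6 male carries DBA tags. In windows where at least 90% of its sorted calls were DBA, the median of members was 90.8% in that library, with 78 of 84 above 50%, while the B6 female had 0% at these members. In windows with 10% to 90% DBA tags the median was 37.5%, with 26 of 129 members above 50%. In windows with under 10% DBA tags the median was 0%, and 2 of 662 members were above 50%. Without the windows that carry DBA tags, 218 of 243 members were called higher in DBA (89.7%), against 0.0316% of the cytosines tested. Wrn showed the contrast at a single site. This intronic cytosine of a RecQ helicase gene had 0% in the B6 female, 96.2% in the B6 male, and 98.8% and 91.3% in the female and male of DBA. In the F1 mice it had 41.1% and 40.4% in the BXD female and male and 34.5% and 40% in the DXB female and male. Its B6-tagged reads in the F1 mice had 0 to 2.11%, so of the B6 material only the male library was high.

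Within the F1 mice, reads that carry a SNP separate the chromosomes of 1 nucleus. Of the members, 529 had at least 10 reads of each tag in 3 or 4 F1 mice and could be tested, and this depends on coverage and on a nearby SNP, not on the level. The DBA-tagged reads had a median level of 88.0% in the BXD female, 88.2% in the BXD male, 88.6% in the DXB female and 88.9% in the DXB male (88.4 ± 0.376%, mean ± SD, n = 4 mice). The B6-tagged reads had a median of 0% in each of the 4 mice, and no member had B6-tagged reads above 50% in any of them. By these medians, members with 10 reads of each tag thus kept the parental level on each chromosome. Their levels near 41% of all reads were made of a methylated and an unmethylated set. By the Mantel-Haenszel test stratified by mouse, with Benjamini-Hochberg adjustment over all 66134 cytosines tested, 520 of the 529 members were called higher on the DBA chromosome by more than 50 points (98.3%), against 0.875% of all cytosines tested. No cytosine was called higher on the B6 chromosome. Without a limit on the difference, 528 of 529 members passed, against 1.06% of all cytosines. By limma on the differences of each mouse, 419 members were called with the limit of 50 points, against 0.69% of all cytosines.

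The direction was DBA above B6 in every mouse at 138 of 138 members measured in 3 mice and at 390 of 391 measured in 4. How often other tagged cytosines had that direction in every mouse was not counted. The exception lay on chromosome 7 at position 72457123, where DBA-tagged levels were 31.8%, 22.2%, 13.3% and 23.1% and B6-tagged levels 10.7%, 46.7%, 0% and 4.55% in the BXD female, BXD male, DXB female and DXB male (adjusted p = 1.0, Mantel-Haenszel test). Of the 579 cytosines called in the F1 mice, 520 were members, and 526 had been tested in the female parents. The remaining 6 of these 526 differed by 30 to 50 points in the female parents. The share of tagged reads that came from the DBA chromosome was taken at each cytosine. Its median over cytosines was 48.1 ± 0.747% at the members and 48.7 ± 0.284% at all tagged cytosines outside CG (mean ± SD, n = 4 mice). By this median, the DBA chromosome was read about as often at members as elsewhere. The median does not show members with few or no DBA-tagged reads, and these were not counted. In the BXD female, 578 of the 722 members with 10 reads were measured on both tags.

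The parent of origin made little difference at the members. At the 391 members measured in all 4 F1 mice, the median difference of DBA-tagged levels between BXD, where DBA is the father, and DXB, where it is the mother, was 0.105 points. The 2 crosses were more than 20 points apart at 4 members and more than 50 points apart at none, with 28.1 points as the widest gap. With 2 mice per cross no test of single members was made.

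The base after the cytosine set the members apart from other cytosines. Of the 1638 members, 1272 stood before A (77.7%, exact 95% interval 75.6 to 79.7%), while 32.8% of all cytosines tested did. C followed at 179 members (10.9%, against 32.4%) and T at 187 (11.4%, against 34.8%). Per 100000 cytosines tested, 67.6 of those before A were members, 9.64 of those before C and 9.36 of those before T. A CA is what remains of a CG on the strand that faces a deaminated cytosine, while a change of that G to C or T is a transversion. The ancestral base was not examined, and how the members before A arose was not tested. The median level in the DBA female differed little by next base, at 89.0% before A, 87.0% before C and 88.7% before T.

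CHG made up 23.4% of the members and 26.7% of the cytosines tested, but the shares departed within the next base, with 23.7% against 36.3% before A, 16.8% against 8.62% before C and 28.3% against 34.5% before T. On the plus strand were 48.7% of the members. A preceded 28.2% of the members and 20.3% of the cytosines tested. Members that stood as the second C of CCAG, CCCG or CCTG, on their own strand, were rare, with 5 of 1638 (0.305%) against 7.94% of the cytosines tested. A G in place of the third base of these words gives CCGG, the site that MspI cuts to make the RRBS fragments. Whether such sites were cut in DBA was not tested.

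Where C followed the member in the reference, the reads at that C could be counted. A read that carries a base other than C or T at a cytosine gives no call there, so a changed base shows as missing calls. In the DBA female, calls at the following C were under 10% of those at the member for 169 of 179 members (94.4%, exact 95% interval 90 to 97.3%), while this was so at 1.06% of other cytosines followed by C. In the DBA male it was so for 29 of 31 members, and in the B6 female for 2 of 179. In the library labelled B6 male it was so for 7 of 86 members, and 12 of 86 had under 50%. In windows where that library had under 10% DBA tags, it was so for 0 of 64 members, with none under 50%, while in windows with at least 90% DBA tags it was so for 4 of 4. Without the windows that carry DBA tags, a split made after the data had been seen, it was so for 1 of 67 members, with 2 under 50%. In the F1 mice, the median was 53.0% in the BXD female, 54.1% in the BXD male, 52.2% in the DXB female and 51% in the DXB male, near the B6 share of the reads. The C after the member was thus read in nearly all members in the B6 female, nearly absent in DBA and present at an intermediate level in F1 mice, in parallel with the methylation of the member in reverse. Missing calls do not tell whether the base was G or A in DBA.

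Ucp2, which encodes a mitochondrial uncoupling protein, gave an example in a coding exon within 1 kb of a transcription start. Its member had 0% in both B6 mice, 97.2% in the DBA female, 97.4% in the DBA male, 45.0% and 38.8% in the BXD female and male, and 47.4% and 34.3% in the DXB female and male. The groups did not overlap, with every F1 mouse between the parents. The following C had 104 reads where the member had 104 in the B6 female, and 110 and 110 in the B6 male. It had 1 read against 107 in the DBA female, and the DBA male had 0 against 38. In the F1 mice it had 80 reads against 149 in the BXD female, 79 against 129 in the BXD male, 60 against 114 in the DXB female and 69 against 105 in the DXB male.

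**Figure D2:**
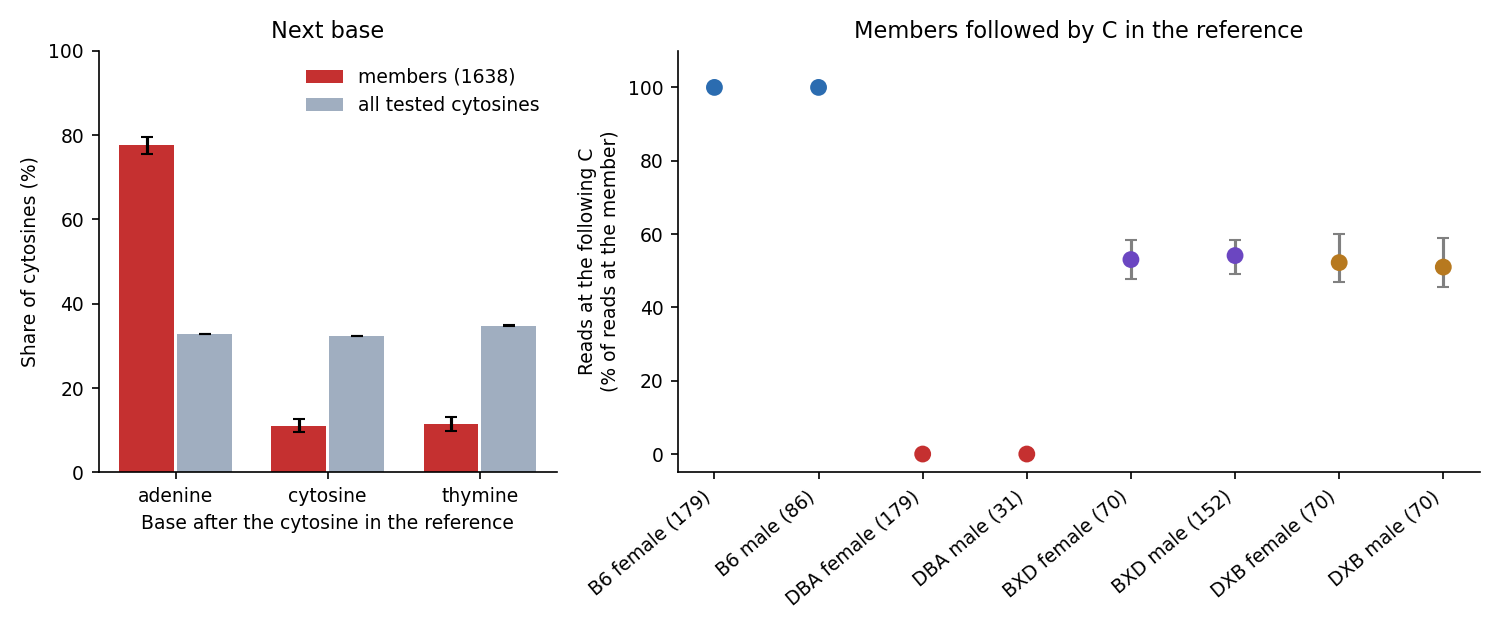
Left: share (%) of members and of all tested cytosines followed by adenine, cytosine or thymine in the reference, with exact 95% intervals. Right: for members followed by cytosine, calls at that cytosine as a percentage of calls at the member (median and quartiles, number of members in brackets), at 100% in B6, 0% in DBA and 51 to 54.1% in F1 mice.

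Nearly all members lay on reads that the authors could sort by a SNP. In the DBA female, 1531 of 1638 members (93.5%, exact 95% interval 92.2 to 94.6%) had more than 90% of their reads sorted to a chromosome, against 5.89% of all cytosines tested. At 1528 of these 1531 the tag was DBA for more than 90% of the sorted reads, and in the B6 female all 1532 such members had the B6 tag. The share with tagged reads was 95.6% for members before A on either strand. It was 92.8% on the plus strand and 82.2% on the minus strand for members before T, and 85.1% and 83.7% for those before C. A SNP at the base after the member could tag the reads over it where the study kept that SNP. The paper states that C/T SNPs were left out of its calls, and positions of SNPs were not analysed here.

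The 102 members with under 10% tagged reads were less uniform. The female parents, used in the choice, had medians of 78.6% (DBA) and 0.735% (B6). Elsewhere the median was 59.7% for the DBA male (n = 16), 36.8% in the BXD male (n = 86), 28.4% in the BXD female (n = 20), 10% in the DXB female (n = 25) and 14.5% in the DXB male (n = 26). The medians of the tagged members in the same F1 mice were 40.3 to 42.0%. The number of untagged members with 10 reads was small outside the BXD male, and different members were measured in each mouse.

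The levels were then set beside the CGs around the members. Within 50 bases, 1371 of 1638 members had at least 1 reference CG with 10 reads in the DBA female. The median difference between the member and the mean of these CGs was 0.0 points (quartiles -6.70 and 8.41), and 1094 members (79.8%) were within 20 points of it. Since the rule admits no member below 50%, members beside CGs of lower level could lie only above them. In libraries not used in the choice, the median difference was 0.784 points in the DBA male (n = 331), and on DBA-tagged reads -2.44 points in the BXD female (n = 605), 0.21 in the BXD male (n = 977), -2.62 in the DXB female (n = 572) and -2.12 in the DXB male (n = 566). The medians of the members and of the means of their nearby CGs were 90% and 90% in the DBA male and 89.1% and 89.3% in the BXD male. The members had the lower median in the other F1 mice, with 88.2% against 92.5% in the BXD female, 88.6% against 92.5% in the DXB female and 88.9% against 92.3% in the DXB male. On B6 chromosomes the same cytosines lay far below the CGs around them, by 87.5 points in the B6 female (n = 1397) and by 87.5 to 88.9 points on B6-tagged reads of the F1 mice.

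An ordinary CG gave the scale for this comparison. Reference CGs above 50% in the DBA female, set against the other CGs within 50 bases with their own pair left out, were within 20 points at 87.7% of 304708 sites, with a median difference of 1.39 points. CGs of the same kind within 50 bases of a member were within 20 points at 83.9% of 2275 sites. The members were within 20 points at 79.8% in the DBA female, whose levels chose them, and at 76.7% in the DBA male. On DBA-tagged reads of the F1 mice, not used in the choice, the shares were 84.5% in the BXD female, 83.6% in the BXD male, 86.4% in the DXB female and 83.2% in the DXB male. Reference CGs were not set against their surroundings on tagged reads, so the members and CGs are compared in the DBA female alone, where the members had the lower share. Pearson's r with the surroundings was 0.341 for the members, 0.335 for the CGs near members and 0.506 for CGs at large, and 0.426 to 0.527 for the members on DBA-tagged reads of F1 mice. Sites that lie close together share reads, and the limit of 50% narrows the range of each of these sets. By the nearest CG alone, the share of members within 20 points was 81.6% at distances of 1 to 5 bases, 83.2% at 6 to 10, 83.3% at 11 to 20, 79.2% at 21 to 50 and 76.0% at 51 to 100 bases.

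**Figure D3:**
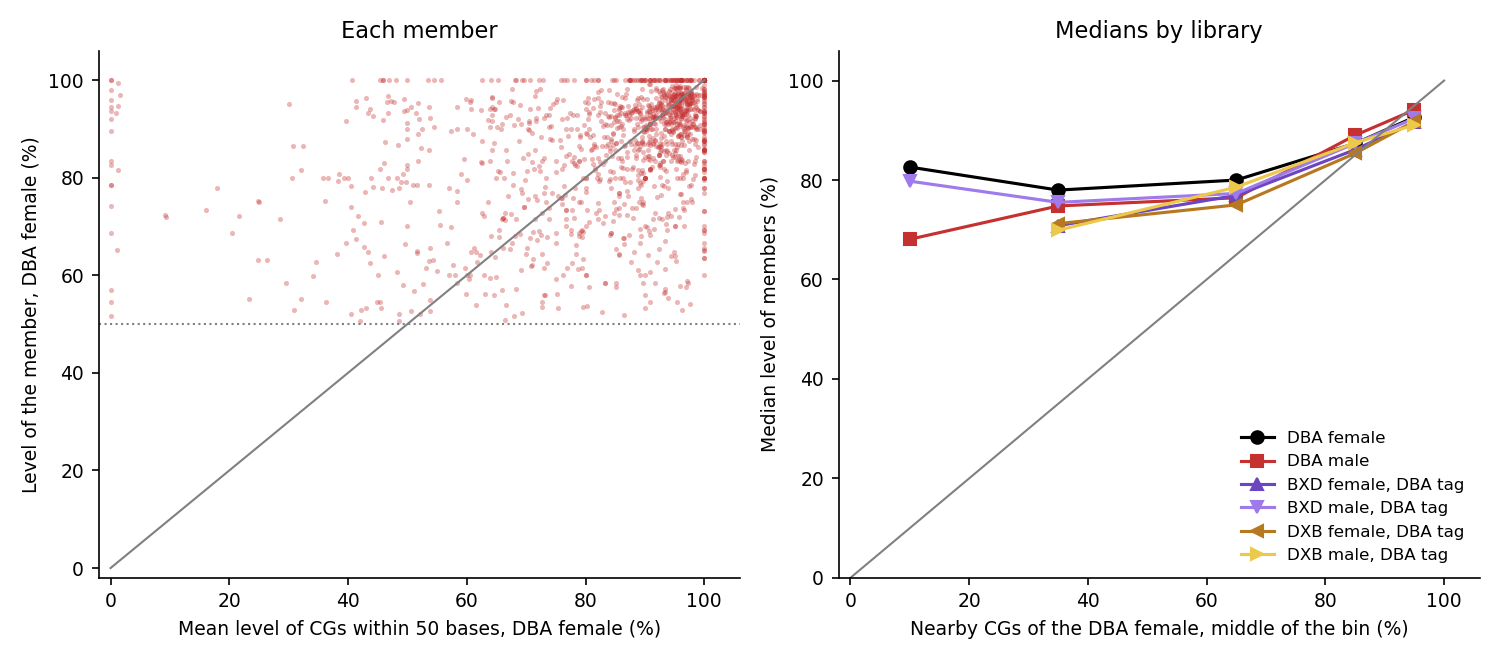
Left: level of each member (%) against the mean level (%) of reference CGs within 50 bases, both in the DBA female, with the line of equal levels and the 50% line. Right: median level of members (%) in bins of the level of nearby CGs, in the 6 sets of DBA chromosomes (sets with a single member in a bin are left out), which were 91.1 to 94.1% where nearby CGs were above 90%, and 69.9 to 78.0% where they were at 20 to 50%.

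The level of the members rose with that of the CGs around them within the range the rule allows. Where nearby CGs averaged 20 to 50% in the DBA female, the median of the members was 78.0%, and on DBA-tagged reads of the F1 mice it was 69.9 to 75.5%. Where they averaged 80 to 90%, it was 87.4%, and 85.4 to 87.5% in the F1 mice. Above 90% it was 92.6%, and 91.1 to 92.4% in the F1 mice. The order from the middle bins to the highest was the same in the DBA male, with 74.8% at 20 to 50%, 76.4% at 50 to 80%, 89.0% at 80 to 90% and 94.1% above 90%. Members whose nearby CGs averaged under 20% departed from this order in the DBA female and, with 79.8% (n = 20) on DBA-tagged reads, in the BXD male, where the next bins had 75.5% and 77.3%. In the DBA male their median was 68.1% (n = 9), the lowest of its bins.

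Only 27 members had nearby CGs below 20% in the DBA female, with a median of 82.6% at the member. The nearby CGs had a median of 0% in the DBA female, and at 26 of the 27 members they were 2 or fewer cytosines. At 22 of these 27 the same CGs were above 50% in the B6 female, with a median over the 27 of 85.7%, and at 2 they were below 20% there too. In the BXD male, 19 of these members had a median of 80% on DBA-tagged reads and 0% on B6-tagged reads. CGs near members were also compared with CGs at large, which had lower levels (medians in the B6 female of 90.2% and 51.1%). Of 3149 CGs within 50 bases of a member, 154 were higher in B6 by more than 50 points (4.89%), against 0.508% of all CGs, and in males the shares were 4.08% and 0.315% (4.90% and 0.323% without the windows with DBA tags). Among CGs above 80% in the B6 female alone, a limit set after the data had been seen, the shares in females were 5.05% near members and 0.930% of all. None of these shares was tested. Most members lay on reads with a SNP, and the paper reports that CGs on such reads differed between the strains more often than CGs at large. CGs on reads with a SNP were not used as a background here, so these shares do not set members apart from other such reads. Higher in DBA by more than 50 points were 10 of the 3149 (0.318%), against 0.0518% of all CGs, and in males 2 of 736 (0.272%), against 0.110%, or 1 of 551 (0.181%) against 0.106% without those windows. The female parents were within 10 points of each other at 72.6% of the CGs near members, against 85.2% of all CGs. Among CGs above 80% in the B6 female, these shares were closer, at 82.4% and 87.6%.

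By the level of nearby CGs in the DBA female, 2.01 per 100000 cytosines tested were members where these averaged under 20%, 23.1 at 20 to 50%, 34.0 at 50 to 80%, 33.7 at 80 to 90% and 45.3 above 90%. The B6 female, whose sequence is the reference, was therefore used as a second measure of the surroundings, a choice made after these values had been seen. Of 1304415 cytosines outside CG whose nearby CGs averaged under 20% in the B6 female, 3 were members, or 0.23 per 100000 (exact 95% interval 0.0474 to 0.672). The rate was 16.6 per 100000 where nearby CGs averaged 20 to 50%, 36.2 at 50 to 80%, 42.3 at 80 to 90% and 42.1 above 90%. The medians of the members were 71.9%, 81.8%, 88.2% and 93.2% in the latter 4 bins. Against the B6 surroundings, 1177 of 1397 members (84.3%) were within 20 points, with a median difference of 1.24 points and Pearson's r of 0.428.

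The rule selected on level, so a set chosen without it was examined as well, also after the data had been seen. It held the 621 cytosines before C whose following C had under 10% of the reads in the DBA female and over 90% in the B6 female, whatever their own level, and 167 of them were members. The same loss in B6 was seen at 1 cytosine. The reference is the B6 sequence and has a C at each of these sites, so that count does not compare the strains. Where nearby CGs averaged under 20% in the B6 female, 1 of 167 such cytosines was above 50% in the DBA female (0.599%, exact 95% interval 0.0152 to 3.29%) and 162 were under 10%. Where nearby CGs averaged 20 to 50% in the B6 female, 5 of 50 were above 50% (10%). At 50 to 80% it was 38 of 86 (44.2%), at 80 to 90% 45 of 105 (42.9%) and above 90% 57 of 153 (37.3%). Under 10% were 33 of 50, 43 of 86, 56 of 105 and 89 of 153 in these 4 bins. By nearby CGs of the DBA female, the counts above 50% were 4 of 184 (2.17%) below 20%, 6 of 46 (13.0%) at 20 to 50%, 38 of 104 (36.5%) at 50 to 80%, 29 of 75 (38.7%) at 80 to 90% and 64 of 139 (46%) above 90%. These levels are those of the DBA female, which also chose the members. Of the libraries not used for either choice, the DBA-tagged reads of the BXD male covered most of the set, with 1 of 142 above 50% in the lowest bin of B6 surroundings, then 5 of 34, 22 of 61, 30 of 71 and 38 of 107. In the DBA male the counts were 1 of 74, 1 of 13, 3 of 15, 10 of 30 and 10 of 36. In the other F1 mice, no cytosine of the lowest bin was above 50% on DBA-tagged reads (0 of 75, 0 of 67 and 0 of 71 in the BXD female, DXB female and DXB male), and the highest bin had 26 of 75, 25 of 73 and 24 of 72. A level above 50% was thus rare among unmethylated CGs in each of these libraries. A change of the following C to A leaves no CG and could not be told apart from a change to G.

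**Figure D4:**
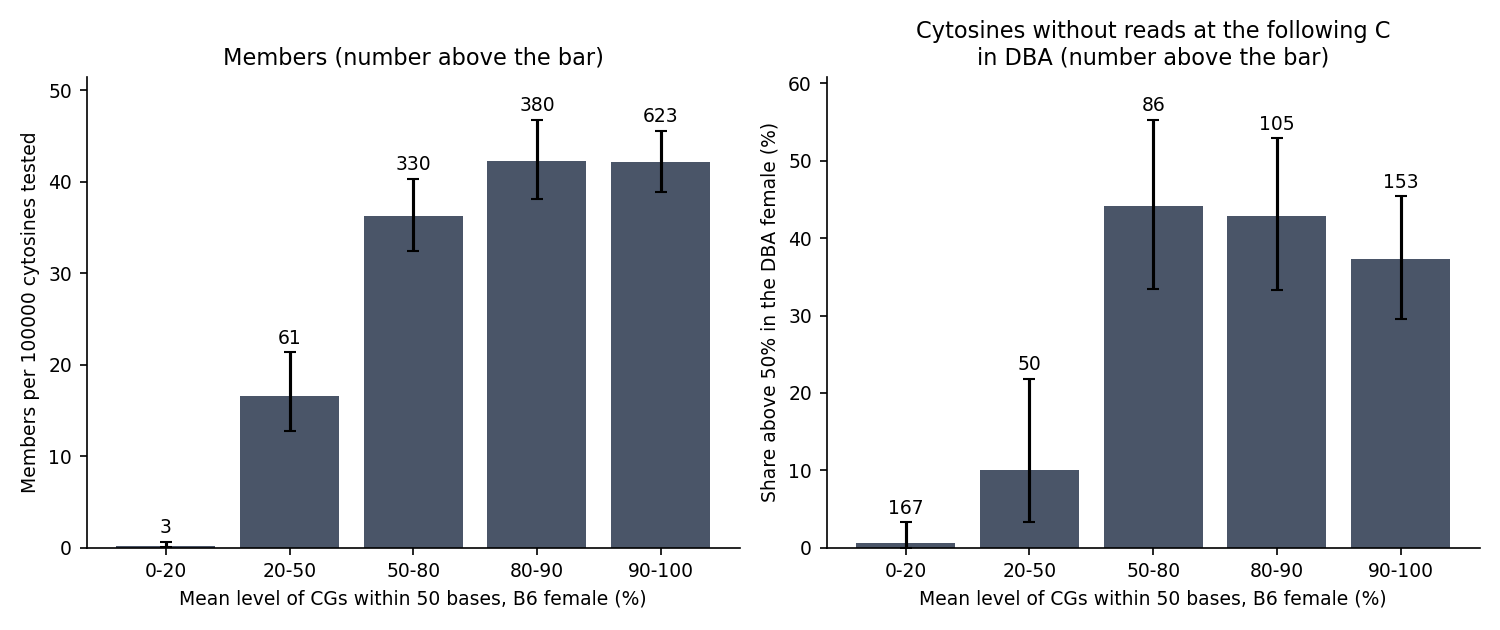
Both panels are split by the mean level (%) of CGs within 50 bases in the B6 female, with exact 95% intervals. Left: members per 100000 cytosines tested, from 0.23 below 20% to about 42 above 80%. Right: share (%) above 50% in the DBA female among cytosines whose following C had no or few reads in DBA, from 0.599% to 44.2%.

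The members lay apart from promoters. Within 1 kb of the transcription start of a protein-coding gene were 99 members (6.04%), against 21.6% of the cytosines tested, or 8.01 members per 100000. There, the nearby CGs of all cytosines tested had a median of 2.12%, while those of the 99 members had 89.1%. Introns held 680 members (30 per 100000), intergenic sequence 786 (30.9), coding exons 133 (24.5) and UTRs 39 (10.3). The median level in the DBA female was 92.3% in coding exons, 91.3% in UTRs, 89.3% in introns and 87.1% in intergenic sequence. Dense stretches held few members, with 63 (3.85%) among at least 6 CGs in 101 bases, against 14.2% of the cytosines tested. Between chromosomes the rate ran from 17.6 per 100000 on chromosome 10 to 39.4 on chromosome 4, and 1534 members had no other member within 100 bases.

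At single genes the levels of all mice could be followed. Wdr60, part of the dynein motor of cilia, had its member in a coding exon, with 0.862% in the B6 female, 0.676% in the B6 male, and 98.3% and 98.8% in DBA (female and male). The F1 mice had 45.1% and 40.1% (BXD female and male) and 41.7% and 50% (DXB female and male), so the groups did not overlap. On DBA-tagged reads the F1 levels were 94.6 to 96.8%, beside 94.9% over 3 nearby CGs in the DBA female. In Mtmr10, a gene of the myotubularin family, the coding member had 1.06% and 0% in B6, 96.9% and 100% in DBA and 44.1 to 52.4% in F1 mice, with nearby CGs at 98.3%. Gm10874, a predicted gene, had a coding member within 1 kb of a transcription start, with 0% and 0.775% in B6, 96.1% and 100% in DBA and 41.4 to 49.7% in F1 mice, beside nearby CGs at 98.7%. In these 3 genes and in Ucp2, the member and the CGs around it were close to fully methylated in DBA.

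Other members took intermediate levels or lay beside CGs of intermediate level. Selp encodes P-selectin, an adhesion molecule of platelets and endothelium, and its intronic member had 0.930% and 0.602% in B6, 77.5% and 75% in DBA, and 36.7%, 39.8%, 33.0% and 36.4% in the BXD female, BXD male, DXB female and DXB male. Its nearby CGs averaged 47.3%, well below the member. In Myo15b, of the unconventional myosins, the member had 0% in both B6 mice, 60% and 64.9% in DBA and 29.1 to 36.9% in F1 mice, close to the 57% of its nearby CGs. Ltk, a receptor tyrosine kinase gene, had its member in a UTR within 1 kb of a transcription start, with 1.41% and 0% in B6, 63.2% and 40.3% in DBA, and 18.8 to 27.7% in F1 mice, with nearby CGs at 24.8%. The DBA levels rested on 19 reads in the female and 119 in the male, and the F1 difference of 48.0 points stayed under the limit of 50 (adjusted p = 2.71e-18, Mantel-Haenszel test). Krt40, a keratin gene, lay above its surroundings, with 92.1% and 92.7% in DBA beside 71.6% over 4 nearby CGs. It had 0% in the B6 female and 44.6% in the library labelled B6 male, and its B6-tagged reads in F1 mice had 0.917 to 1.43%.

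**Figure D5:**
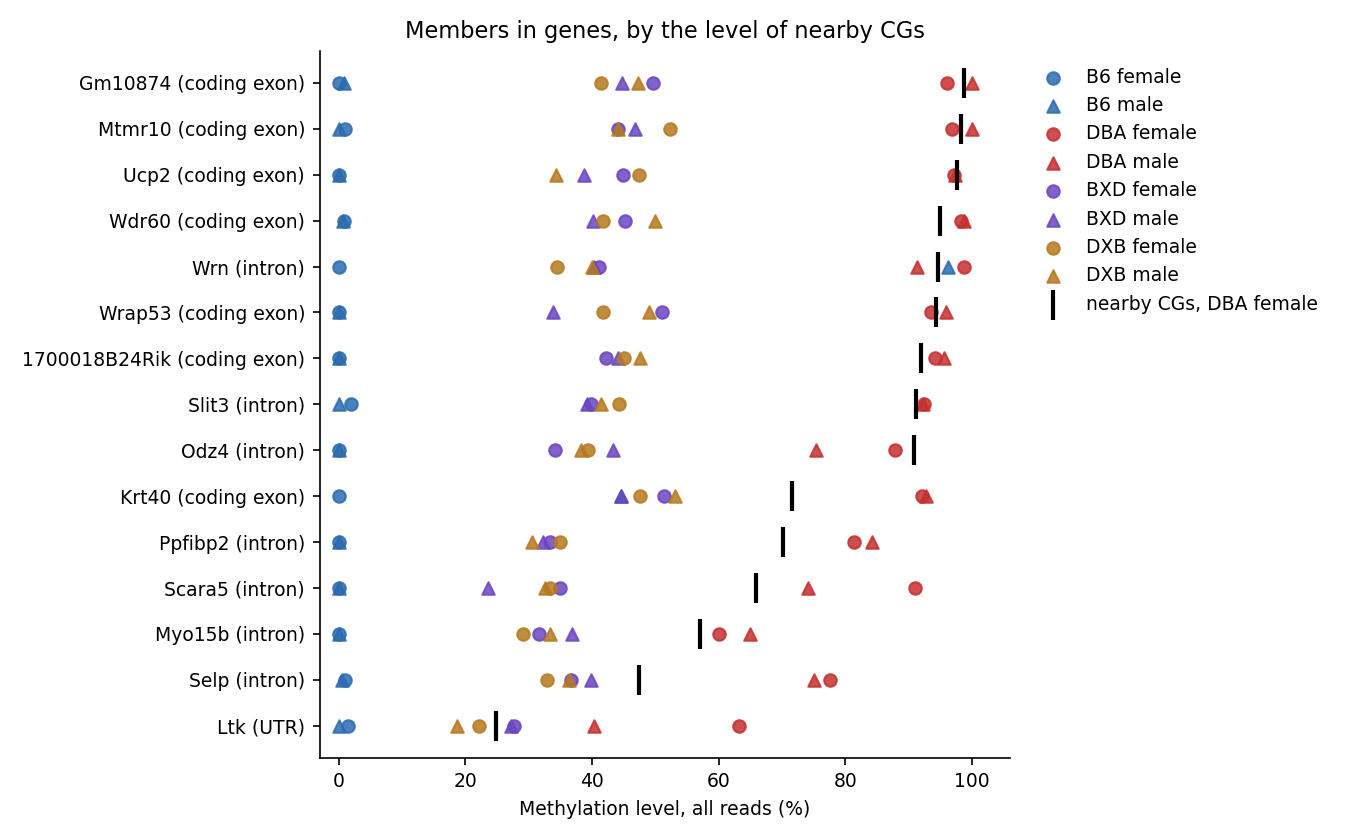
Methylation level (%) of members in 15 genes in each of the 8 mice, from all reads, ordered by the mean level of CGs within 50 bases in the DBA female (black bars). F1 mice lay between the female parents, and the library labelled B6 male was high at Wrn (96.2%) and Krt40 (44.6%), while the B6 female was at 0% in both.

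Of the 22 members named by the rule of coverage and place, 21 were called on the DBA chromosome in the F1 mice, and Ltk was not. The rule asked for 10 reads of each tag in 3 F1 mice, and among all members that could be tested 98.3% were called, against 0.875% of all cytosines. Another of these members lies on chromosome 2 at position 172587610, outside genes. It had 1.35% and 0% in B6, and 74.7% and 65.6% in DBA (female and male). On DBA-tagged reads it had 71.3% in the BXD female and 69.1% in the DXB female but 57.5% in the BXD male and 43.3% in the DXB male, while its 2 nearby CGs averaged 86.4% in the DBA female. Females were above males in DBA and in both crosses at this site, while both B6 mice were near 0% (148 reads in the female, 232 in the male). The site was singled out after its values were seen, and no test was made.

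The window with most members, 8 of them, lay on chromosome 12 from 20200001 to 20300000, and 7 had another within 100 bases. It stood apart from the other members, since 7 of its 8 cytosines had 15.0 to 35.1% in the B6 female beside 73.1 to 98.2% in the DBA female, and no more than 2 reads in at least 1 other mouse. At these 7 cytosines the F1 mice did not lie together, with 62.8 to 93.0% in the BXD male, 2.70 to 8.57% in the DXB female and 0 to 13.6% in the DXB male. The BXD female had 11.4% and 14.3% at positions 20240181 and 20240183 (35 reads each), near the DXB mice, and under 10 reads at the rest. The next windows held 5 members each. That around Ephb2, an ephrin receptor gene on chromosome 4, had members at 54.5 to 100% in the DBA female and at 0 to 2.13% in the B6 female, 4 of them within the gene.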

How the data were processed

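Liver DNA of 8 mice was measured by RRBS. The authors digested DNA with MspI, aligned reads to mm9 with BS Seeker, kept unique positions, and used SNPs found in the pooled reads to assign reads to a chromosome. Per the labels and the file headers, the authors deposited counts of reads, methylated and unmethylated, for each cytosine and class of reads, and the level as a fraction. Their tables of comparisons hold differences, p-values and mean levels, and were not used.

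Counts were summed over classes, and levels were taken from the sums. The strand and the next base came from NCBIM37, and genes from GENCODE M1. Members and lists were chosen with earlier results of these data known. Named members had 10 reads in all 8 mice and 10 reads of each tag in 3 F1 mice, were ordered by their smallest number of reads, and were taken by level of nearby CGs (first 10 at 80% or more, 6 at 20 to 80%, none met the rule below 20%), near transcription starts (6) and in coding exons (6), at most 1 per 100 kb. The male parents were compared by the study's rule and the F1 chromosomes by a Mantel-Haenszel test with Benjamini-Hochberg adjustment, which treats reads as independent. Intervals cover counting error only, PCR copies included.

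Scripts used scipy 1.17.1, numpy 2.4.6, numba 0.67.0, pandas 2.3.3 and matplotlib 3.10.9 under Python 3.11.15, and limma 3.58.1 under R 4.3.3. In counts simulated at the real coverage, 200 of 200 changed cytosines were called for the F1 chromosomes among 66134, and 196 of 200 for the male parents among 1495507, with 0 unchanged cytosines called in either. These counts describe the simulation only and do not give the share of real changes that was found. In the real male parents, 238 of 319 members were called. Neither read trimming nor the handling of PCR duplicates is described in the sources read.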

Additional observations from a re-analysis of the deposited data

Results flagged for a closer look

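The member in Wrn was singled out because 1 F1 mouse lay far from the other three in the level of all reads. The DXB female had 34.5%, below 40%, 40.4% and 41.1% in the other F1 mice, while its DBA-tagged reads had 92.3%, within the range of 91.3 to 96.5% of the 4 mice. It was 1 of 47 sets of 4 F1 mice examined by Dixon's 95% critical value, a limit that by its definition about 1 in 20 sets from a normal distribution pass.

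The X chromosome lay outside the choice of members. There, 13 of 208473 cytosines outside CG were higher in the DBA female than in the B6 female by more than 50 points, and 1 was higher in B6. In the other mice their median was 24.1% in the DBA male (n = 6), 22.5% in the BXD male (n = 11), 34.0% in the BXD female (n = 4), 38.9% in the DXB female (n = 4), 50.9% in the DXB male (n = 3) and 0% in the B6 male (n = 5). The DBA male thus lay below the autosomal members, on 6 sites, which ran from 0 to 83.3%. A male has a single X chromosome, from its mother, so the BXD male carries a B6 X chromosome and the DXB male a DBA one. The value of the BXD male, with sites from 0 to 56.8%, is therefore not a mean of 2 parental chromosomes. Why it was above that of the B6 male was not tested.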

How the results depend on the processing

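With 50 reads in place of 10, the rule gave 779 members, and with 20 reads 139 members were called in the male parents, since fewer cytosines were tested. All other alternatives kept their side of the comparison: 1205 to 2177 members, 218 to 335 calls in the males and 369 to 611 calls in the F1 mice, with 419 by limma (0.69% of all cytosines tested). Leaving out each F1 mouse gave 388 to 499 calls and F1 medians of 40.7 to 41.2%. The share before A ran from 77.3 to 78.7%, the share with missing calls at the following C from 96.6 to 96.9%, the tagged share from 93.9 to 94.2%, and the median difference from nearby CGs from 0.0 to 1.24 points. The comparison of F1 chromosomes was paired within each mouse, and counts pooled without mice as strata also gave 520 calls. The labels give no replicate numbers that would pair the mice with each other. The parents had 1 mouse per strain and sex, the sequence of DBA was not read directly, and a level from 10 reads has a resolution of 10 points.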

Other observations

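The 7 cytosines outside CG that were higher in the B6 female by more than 50 points stood before A in 5 cases and before T in 2. Between 30 and 40 points, 385 cytosines outside CG were higher in the DBA female and 52 in the B6 female, and between 40 and 50 points 154 and 11.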
